A study of Arabidopsis thaliana with 12 samples.

Results

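The effect of the geralt mutation that is shared by seedlings of both ages was taken from all 12 libraries of the series (12 of 12). The comparison was the mean of the geralt minus wild-type difference at 5 days and at 12 days. Geralt is the Arabidopsis thaliana line SALK_116579, an insertion line of PHR2, which codes for a protein related to photolyases and blue-light receptors. The reference was the WT Col (N6000) line. Each genotype gave 3 libraries of 5-day-old and 3 of 12-day-old seedlings, named here by the numbers in their titles: geralt 1, 3 and 7 and wild type 2, 4 and 8 at 5 days, and geralt 5, 9 and 11 and wild type 6, 10 and 12 at 12 days. The mutant is thus represented by a single insertion line, and complemented or second-allele plants are not analysed here. All seedlings were grown in vitro on B5 medium with sucrose with a day of 10 h and a night of 14 h, and whole plants were taken about 4 h after the light came on. RNA came from 100 mg of tissue, polyA libraries were made with a Lexogen kit, and reads of 150 bases were taken from both ends of each fragment on 2 NovaSeq lanes with 6 libraries each. The lane of each library is not given in the labels, so a lane difference cannot be told apart from the others. The series design calls the 3 libraries of a group biological replicates.

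As a seedling greens, proplastids develop thylakoid membranes, chlorophyll is made from glutamate through protoporphyrin and protochlorophyllide, and nuclear genes for the light-harvesting antenna are switched on in step with it. GOLDEN2-LIKE factors such as GLK1 activate many of these nuclear genes. Inside the plastid, a bacterial-type RNA polymerase transcribes mainly photosynthesis genes, while a phage-type polymerase transcribes mainly housekeeping genes such as those of the RNA polymerase itself and of the ClpP protease. Levels are given as CPM, the reads of a gene per 1e6 reads in genes after scaling by the trimmed mean of M-values. Fold changes are log2 values of geralt over wild type with their standard error (SE), and adjusted p-values are from edgeR's quasi-likelihood test with Benjamini-Hochberg adjustment over all tested genes. A gene is called here at an adjusted p under 0.05. It is called consistent at both ages when it also had the same sign at both ages and, at each age, all 3 geralt libraries lay on that side of the 3 wild-type libraries.

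Reads in genes numbered 43.07 M to 67.42 M (M, 1e6 reads) in the geralt libraries and 41.57 M to 115.03 M in the wild-type ones. Several libraries stood apart within their group. Wild-type 5-day library 4, the deepest, was the wild-type 5-day library closest to geralt in 76.6% of the genes consistently higher in geralt and in 67.9% of those consistently lower, while it was the highest of the 3 in 37.6% and the lowest in 33.5% of all tested genes. Geralt 12-day library 5 was the most extreme of its group in 59.9% of the consistently higher genes (37.9% of all tested genes were highest in it) and in 77.2% of the consistently lower ones (39.1% were lowest in it). Wild-type 12-day library 12 had 0.156% of its reads in plastid genes, against 0.712% to 0.755% in the other wild-type 12-day libraries. The 50 most abundant genes took 16 ± 1.24% of the reads in geralt and 24.2 ± 5.43% in wild type at 5 days, and 18.3 ± 4.76% in geralt and 31 ± 3.89% in wild type at 12 days (SD, n = 3 each). The difference of -10.4 percentage points was past an exact permutation test of genotype within ages (two-sided p = 0.005, the smallest it can give, adjusted p = 0.015 over 6 measures). The share of gene reads that the files count as unique differed by -0.143 percentage points (99.2% to 99.3% in geralt and 99.3% to 99.5% in wild type), with the same exact p and adjusted p. By the same exact permutation test, the share of mitochondrial genes (0.0812 points) and that of intron reads (0.319 points) had an adjusted p = 0.0525 each, that of plastid genes (-0.227 points) an adjusted p = 0.174, and that of exon junction reads (-0.478 points) an adjusted p = 0.88. The part of these measures in the results below was not tested. Root markers, 11 of 11 tested, had a median change of -0.06 (log2), and 1 of them, the nitrate transporter gene NRT2.1, fell. Their summed level was 262 to 440 CPM (unscaled) in geralt and 192 to 213 in wild type at 5 days, and 183 to 399 in geralt and 166 to 774 in wild type at 12 days, so at 5 days the groups did not overlap. The part of root RNA in the results was not tested. Of 12 seed storage genes, 3 had enough reads to be tested and none was called.

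PHR2, the mutated gene (AT2G47590, chr2:19521774-19524095, plus strand, TAIR10), was strongly reduced but still present at both ages. At 5 days it had 39.7, 20.6 and 28.0 CPM in geralt, against 207, 89.2 and 271 CPM in wild type. At 12 days it had 30.5, 24.5 and 31.8 CPM in geralt, against 193, 207 and 203 CPM in wild type. The genotypes did not overlap at either age, and the mean log2 fold change was -2.74 (SE 0.26, adjusted p = 0.000641), a level 6.68-fold lower. The counts cannot show on which side of the insertion the remaining reads lay. The 3 nearest tested genes on each side, PME20, ATL64, U1A, MHX, RPL7AA and SWI3A, had log2 fold changes of -0.11 to 0.50 and were not called. Of the other 5 photolyase and cryptochrome genes tested, the blue-light receptor gene CRY1 was lower as well (-0.66, SE 0.17, adjusted p = 0.0465), a call that held in 14 of 23 other settings.

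Over both ages, 1167 of 21122 tested genes (5.53%) were called in geralt against wild type, 466 of them higher (2.21%) and 701 lower (3.32%). Of these, 764 genes (3.62% of all tested) were consistent at both ages: 312 were higher (1.48%) and 452 lower (2.14%). Libraries of the genotypes lay apart in the same direction at both ages in 1178 genes, called or not (5.58%), 530 of them higher (2.51%) and 648 lower (3.07%). The median log2 fold change of the consistently higher genes was 1.16, with 1.00 at 5 days and 1.24 at 12 days, and that of the consistently lower ones was -1.29, with -1.31 at 5 days and -1.26 at 12 days, while the median over all tested genes was 0.00. Changes of at least 2 on the log2 scale were seen in 65 consistently higher and 102 consistently lower genes. The total was more than 1.5 times smaller without any of several libraries: it was 488, 493 and 485 without geralt library 1, 3 or 7, 399 and 366 without wild-type library 2 or 8, and 574 without geralt 12-day library 9. The consistent genes numbered 419, 434, 404, 354, 317 and 480 without the same libraries, in the same order. The total was 1059 when wild-type library 4 was left out, 811 when geralt library 5 was, and 850 when both were. The number of higher genes was 291 when geralt library 5 was left out.

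**Figure D1:**
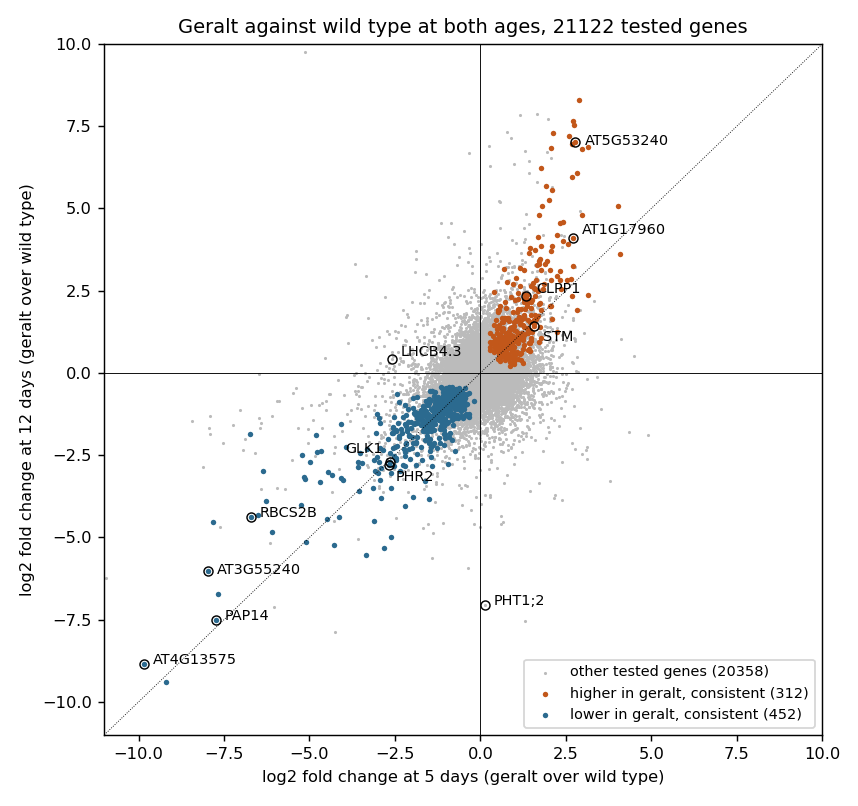
Log2 fold change of geralt over wild type for each tested gene at 5 days (horizontal axis) and at 12 days (vertical axis), with the 312 consistently higher and 452 consistently lower genes in colour and the other tested genes in grey. The coloured genes lie in the quadrants where both ages have the same sign, as their definition requires, and AT4G13575 is the farthest to the lower left.

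Most of the shared calls came from combining the ages. At 5 days alone 55 genes were called (0.26%), 7 higher (0.0331%) and 48 lower (0.227%), and at 12 days alone 169 (0.8%), 92 higher (0.436%) and 77 lower (0.365%). Of the 466 higher genes, 2 were called at each age separately, 91 at 1 age and 373 at neither, and of the 701 lower genes the numbers were 16, 84 and 601. The 2 higher genes were STM and AT5G13370, a member of the auxin-responsive GH3 family. The 16 lower ones included PHR2, GLK1, RBCS2B, DXS, PSY, PSA3, COR413IM1, SWEET10, PER33, BIB, AT4G13575, AT3G55240, AT3G46490, AT3G29270 and AT3G44620. The 2 ages share no library, so genes called at 1 age could be looked up at the other. Of the 48 genes lower at 5 days, 45 had the same sign at 12 days (51.6% of all tested genes were below 0 there) and 39 had non-overlapping genotypes in that direction (8.91% of all). Of the 92 genes higher at 12 days, 88 had the same sign at 5 days (50.6% of all were above 0) and 62 had non-overlapping genotypes in that direction (12.9% of all). Of the 77 genes lower at 12 days, 70 had the same sign at 5 days (49.4% of all) and 53 had non-overlapping genotypes (14.3% of all), and of the 7 genes higher at 5 days, 7 had the same sign at 12 days (48.4% of all) and 5 had non-overlapping genotypes (10.2% of all). The test of whether a gene's age-specific differences differ from each other called 0 genes in edgeR (0.0%, with 2185 genes or 10.3% at an unadjusted p under 0.05), and 78 in DESeq2. Across all tested genes, the fold changes at the 2 ages had a Pearson's r of 0.40 and a Spearman's rho of 0.26, a description over genes, which are not independent.

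GLK1, the activator of antenna and chlorophyll genes (listed as GPRI1 in the files, chr2:8855302-8857758, plus strand), fell at both ages to a similar extent. At 5 days it had 38.8, 28.3 and 18.8 CPM in geralt, against 230, 82.3 and 228 CPM in wild type. At 12 days it had 22.4, 37.4 and 40.7 CPM in geralt, against 202, 279 and 172 CPM in wild type. All geralt libraries lay below all wild-type libraries, and the mean log2 fold change was -2.68 (SE 0.30, adjusted p = 0.00147), with -2.65 at 5 days and -2.70 at 12 days. Its paralog GLK2 had a value of -1.33 (SE 0.38) that missed the threshold (adjusted p = 0.0601). Of the other 16 greening and light regulators tested, HYH, a homolog of the light-response factor HY5, was higher (1.23, SE 0.30, adjusted p = 0.0326) with overlapping libraries at 5 days, a call that held in 14 of 23 other settings. The list's median was -0.26.

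Genes of chlorophyll biosynthesis fell at steps from the start to the end of the pathway. Of 26 tested, 15 were lower, 11 of them consistently, and none was higher, while over all tested genes 3.32% were lower. The list's median was -0.80. The count of lower genes was 7 to 9 without 1 of geralt libraries 1, 3, 7 and 9 or wild-type libraries 2 and 8, and 12 to 17 without 1 of the others. They ran from HEMA1, which makes the precursor from glutamyl-tRNA (-1.16), through HEME1 (-1.45), GUN4, the cofactor of magnesium chelatase (-1.33), and CRD1, the cyclase subunit (-1.05), to CHLG, chlorophyll synthase (-0.72). The protochlorophyllide oxidoreductases, which carry out the light-dependent step, changed by -4.75 in PORA, -2.80 in PORB (SE 0.38, adjusted p = 0.0043) and -1.80 in PORC (SE 0.26, adjusted p = 0.00503). PORB had 72.8, 33.8 and 31.7 CPM in geralt, against 426, 264 and 444 CPM in wild type at 5 days, and 40.6, 135 and 212 CPM in geralt, against 608, 613 and 1065 CPM in wild type at 12 days. CAO, which makes chlorophyll b from chlorophyll a, had 71.3, 92.6 and 68.1 CPM in geralt, against 283, 323 and 350 CPM in wild type at 5 days, and 53.0, 136 and 215 CPM in geralt, against 395, 389 and 512 CPM in wild type at 12 days. Both genes were apart at both ages, with geralt library 5 the lowest at 12 days, and CAO changed by -1.86 (SE 0.28, adjusted p = 0.00574). In the breakdown of the pigment, the pheophorbide oxygenase gene PAO fell (-0.79) and the chlorophyllase gene CLH2 rose (1.31, SE 0.25, adjusted p = 0.0133).

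Most nuclear genes of the photosynthetic apparatus were lower in geralt, while over all tested genes 3.32% were lower. In whole seedlings, fewer green cells and less RNA per green cell cannot be told apart, here and in all lists below. Of 21 tested antenna genes 18 were lower, 15 consistently, with a median of -1.59 (-1.91 at 5 days, -1.54 at 12 days). Of 32 nuclear genes of the photosystems and electron transport 25 were lower, 22 consistently, with a median of -1.49 at 5 days and -1.48 at 12 days. None of these 53 genes was higher, and every fitted value for the mean of both ages was below 0. Antenna members ranged from -0.08 in LHCB7 to -3.84 in LHCB2.3 (SE 0.79, adjusted p = 0.0191), whose symbol in the files is LHCB2.4. LHCB2.3 had 24.6, 37.5 and 11.3 CPM in geralt, against 1022, 333 and 962 CPM in wild type at 5 days, and 4.98, 416 and 340 CPM in geralt, against 1961, 2419 and 577 CPM in wild type at 12 days. The genotypes were apart at both ages, by a narrow gap between geralt library 9 and wild-type library 12. LHCB1 and LHCB2 genes are near-identical copies, so how their reads were divided is uncertain. LHCB5, a minor antenna protein of photosystem II with its own sequence, had 1422, 1211 and 1246 CPM in geralt, against 6212, 4463 and 6837 CPM in wild type at 5 days, and 1002, 2413 and 3661 CPM in geralt, against 5909, 7692 and 7583 CPM in wild type at 12 days (-1.88, SE 0.29, adjusted p = 0.00666). PSAH2, a photosystem I subunit, changed by -2.20 (SE 0.32, adjusted p = 0.00568), PSBW of photosystem II by -1.76 (SE 0.24, adjusted p = 0.00429) and PETC, the Rieske protein of the cytochrome complex, by -1.27 (SE 0.23, adjusted p = 0.0108). The counts depend on single libraries. Without 1 of geralt libraries 1, 3, 7 and 9 or wild-type libraries 2 and 8, 4 to 8 of the antenna and 7 to 13 of the photosystem genes were lower, and without wild-type library 10 the counts were 11 and 17. Without 1 of the other 5, 14 to 19 antenna and 23 to 27 photosystem genes were lower, and with wild-type library 4 and geralt library 5 both left out, 20 and 27.

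Among genes of carbon fixation, the small subunit gene RBCS2B fell by far the most. Of 21 Calvin cycle genes 7 were lower, 6 consistently, with a median of -0.86, while over all tested genes 3.32% were lower. Without 1 of geralt libraries 1, 3, 7 and 9 or wild-type libraries 2 and 8, 1 or 2 were lower, without wild-type library 6 or 10 the counts were 4 and 3, and without 1 of the others 6 to 10. RBCS2B changed by -5.54 (SE 0.64, adjusted p = 0.00183), RBCS3B by -1.63, RBCS1A by -1.27, and RBCS1B had -0.87 and was not called. RBCS2B had 65.7, 58.8 and 78.8 CPM in geralt, against 6804, 3203 and 11141 CPM in wild type at 5 days. At 12 days it had 41.5, 627 and 824 CPM in geralt, against 11531, 13263 and 6306 CPM in wild type. Every geralt library lay far below every wild-type library, but the 4 RBCS genes are near-identical and reads may have moved between them. The regenerating enzymes SBPASE (-1.16, SE 0.23), PRK (-1.32) and the fructose-bisphosphatase HCEF1 (-1.14, SE 0.27) were consistently lower. In starch synthesis, 4 of 11 tested genes were lower, among them APL1 (-1.08, SE 0.18, adjusted p = 0.00757) and ADG1 (-0.88), both ADP-glucose pyrophosphorylase subunits. The starch count was 2 without any of geralt libraries 1, 3, 7 and 9 or wild-type libraries 2 and 8, and 3 to 6 without any of the others.

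Of 17 genes for plastid isoprenoids and carotenoids 5 were lower, while over all tested genes 3.32% were lower. The 2 with the smallest p are those that open their pathways. The count was 3 when any of geralt libraries 1, 3, 5, 7 and 9 or wild-type libraries 2, 4 and 8 was left out, and 4 or 5 without any of the others. DXS, the entry enzyme of the plastid isoprenoid route, had 47.4, 55.5 and 52.6 CPM in geralt, against 194, 144 and 176 CPM in wild type at 5 days, and 42.3, 79.4 and 93.8 CPM in geralt, against 169, 222 and 257 CPM in wild type at 12 days (-1.66, SE 0.20, adjusted p = 0.00183). PSY, phytoene synthase, had 28.0, 23.6 and 20.7 CPM in geralt, against 100, 71.5 and 89.4 CPM in wild type at 5 days, and 21.3, 36.3 and 46.5 CPM in geralt, against 80.8, 80.6 and 110 CPM in wild type at 12 days (-1.62, SE 0.20, adjusted p = 0.00183). Neither gene overlapped between genotypes at either age. Most middle steps, such as PDS3 (-0.59), ZDS (-0.30) and CRTISO (-0.14), were not called, and the list's median was -0.59.

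**Figure D2:**
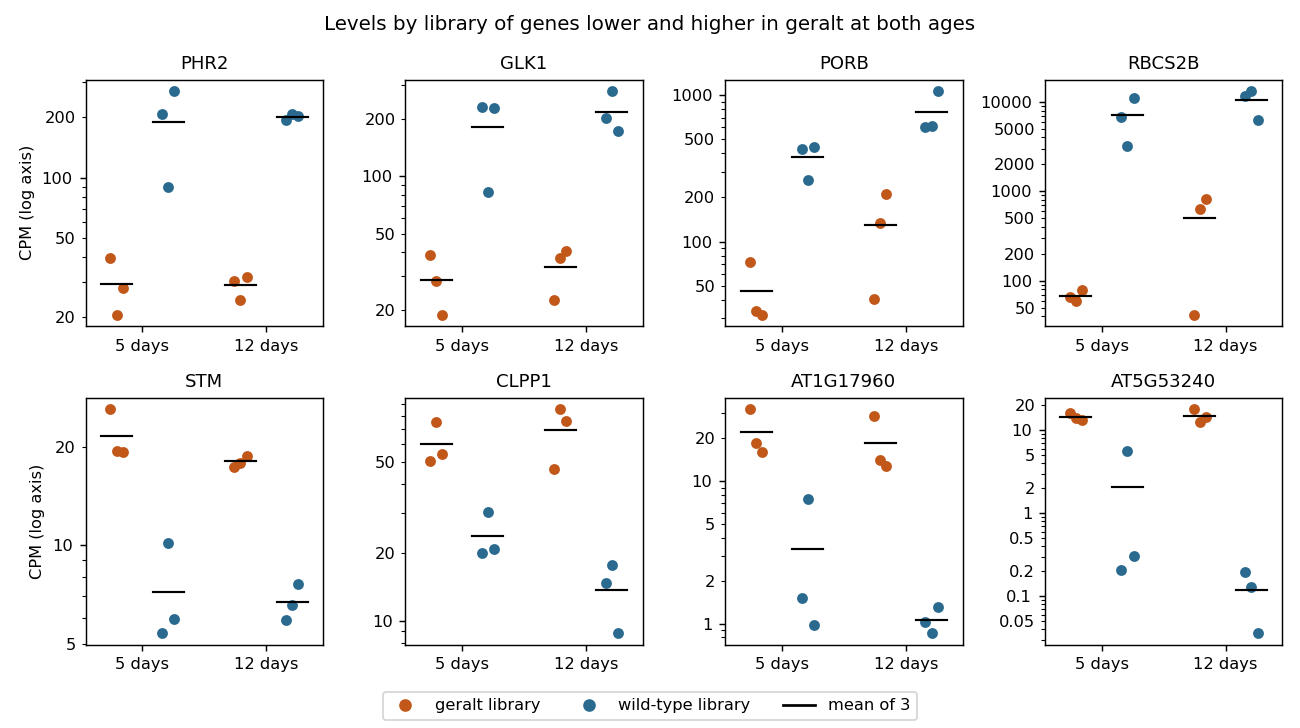
Level in CPM (log axis) of 8 genes in each library, geralt left of wild type at each age, with a bar at the mean of 3 libraries. PHR2, GLK1, PORB and RBCS2B are lower in every geralt library at both ages, while STM, CLPP1, AT1G17960 and AT5G53240 are higher, with 5-day library 4 the wild-type library nearest to geralt at that age.

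In each list of nuclear genes for building the plastid 1 or 2 members were lower and none higher. The counts of lower genes are somewhat above the 3.32% lower over all tested genes, of which 2.21% were higher. Of 30 nuclear genes of plastid ribosomal proteins 2 were lower and none consistently (median -0.42, with all 30 fitted values for the mean below 0), of 20 genes of the plastid transcription machinery 1, the sigma factor gene SIG1, was lower (median 0.04), and of 24 import, protease and chaperone genes 2 were lower (median -0.27). With each library left out in turn, the counts of lower genes ran from 0 to 5, from 0 to 3 and from 0 to 5 in these lists, in the same order. Genes in the plastid genome split by function. Of 24 tested plastid-encoded photosynthesis genes 9 were lower and none higher, with a median of -1.48, but only PSBZ was consistent, since libraries overlapped at 12 days. The count was 14 when wild-type library 12 was left out, 7 when wild-type library 4 or geralt library 5 was, 6 when both were, and 3 to 5 without 1 of geralt libraries 1, 3, 7 and 9 or wild-type libraries 2 and 8. Of 21 tested plastid-encoded genes of gene expression and housekeeping 11 were higher and none lower, with a median of 1.38 (0.67 at 5 days, 2.16 at 12 days), and 3 were consistent, CLPP1 and RPL16 among them. The count of higher genes was 5 without any of geralt libraries 3, 7 and 9 or wild-type libraries 2 and 8, and 9 to 11 without any of the others. RBCL, the large subunit of Rubisco, had 11.3, 23.0 and 33.7 CPM in geralt, against 1810, 941 and 3093 CPM in wild type at 5 days, and 20.9, 715 and 652 CPM in geralt, against 1748, 1979 and 271 CPM in wild type at 12 days. Geralt libraries 9 and 11 lay above wild-type library 12, so the call for RBCL (-3.98, SE 0.76, adjusted p = 0.0136) rests mainly on 5 days. CLPP1, the plastid-encoded protease subunit, had 50.8, 75.2 and 54.5 CPM in geralt, against 20.0, 30.3 and 20.7 CPM in wild type at 5 days, and 46.9, 85.6 and 76.5 CPM in geralt, against 14.7, 17.6 and 8.83 CPM in wild type at 12 days. Its genotypes did not overlap at either age, and it rose by 1.84 (SE 0.22, adjusted p = 0.00183). The RNA polymerase gene RPOB changed by 1.71 (SE 0.27, adjusted p = 0.00704), with 54.5, 116 and 110 CPM in geralt, against 25.8, 64.7 and 28.4 CPM in wild type at 5 days, where wild-type library 4 overlapped geralt. PolyA selection removes most plastid RNA, so these levels come from the small share that was captured. Mitochondrially encoded genes had a median of 0.84, and 1 of 76 tested was called (1.32%).

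**Figure D3:**
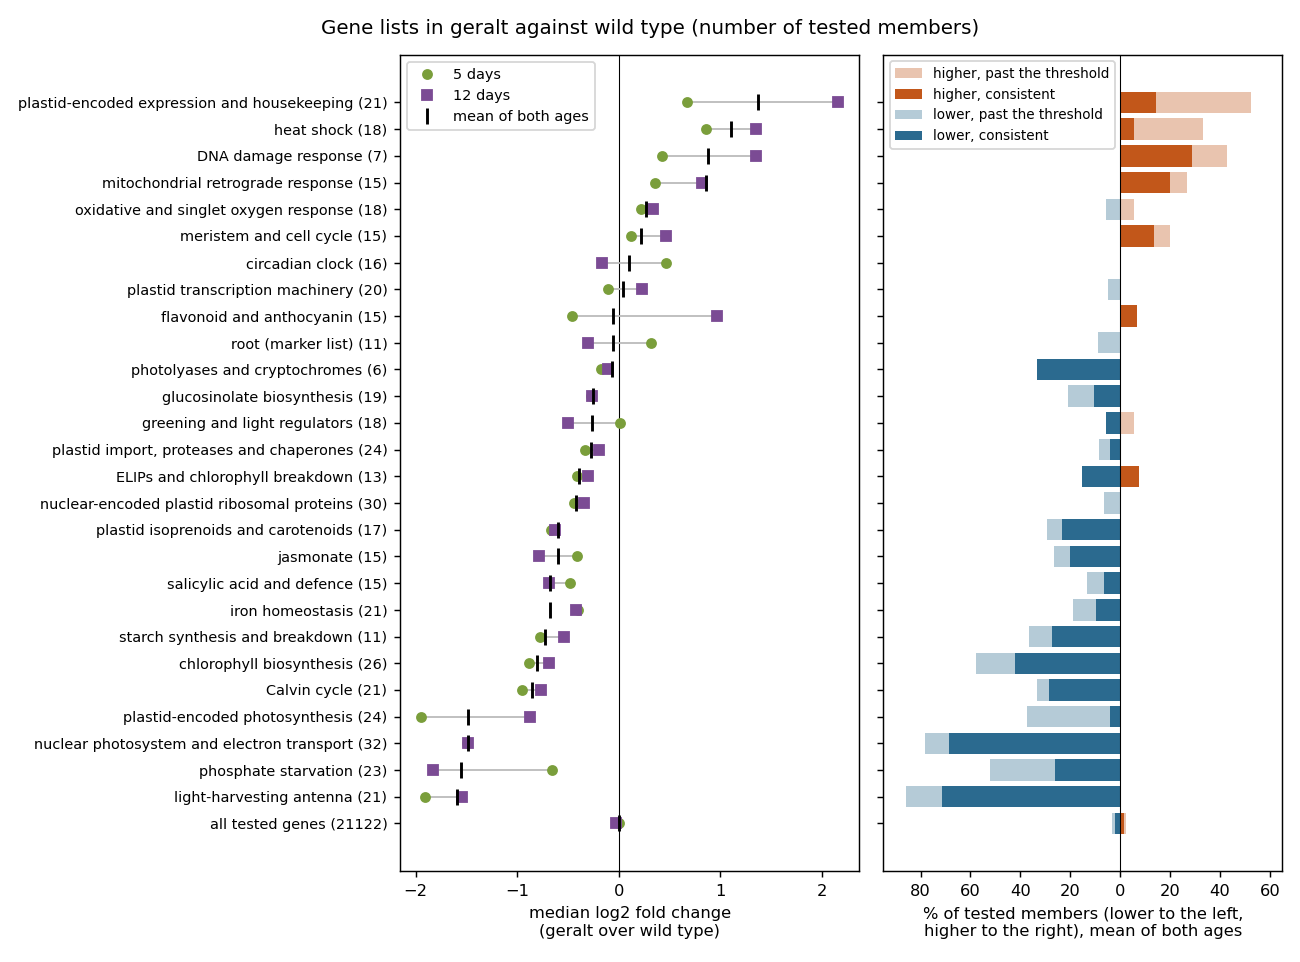
Left, the median log2 fold change of each gene list at 5 days, at 12 days and for the mean of both ages, and right, the percent of its tested members that were lower (to the left) or higher (to the right) for the mean, with the consistent ones in full colour. The antenna, photosystem and chlorophyll lists have medians of -1.59, -1.49 and -0.80, and the plastid-encoded expression list has 1.38.

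Of 23 tested genes that respond to phosphate shortage 12 were lower in geralt and none higher, while over all tested genes 3.32% were lower. The list's median was -1.56 (-0.66 at 5 days, -1.83 at 12 days). The 6 consistent members were AT4, a non-coding RNA of phosphate signalling, the sulfolipid genes SQD1 and SQD2, the galactolipid synthases MGD2 and MGD3, and the acid phosphatase PAP14. MGD2 had 0.700, 1.12 and 0.881 CPM in geralt, against 4.03, 2.67 and 3.12 CPM in wild type at 5 days, and 1.19, 1.67 and 1.33 CPM in geralt, against 4.17, 8.83 and 9.88 CPM in wild type at 12 days, with no overlap at either age. It changed by -2.15 (SE 0.26, adjusted p = 0.00183), and AT4 by -3.02 (SE 0.56, adjusted p = 0.0133). PAP14 had no read in the 3 geralt libraries and 96 in the 3 wild-type ones at 5 days, a level at least 27.7-fold lower against a floor of 3 reads over the group, and 11 reads in geralt and 2389 in wild type at 12 days, 183-fold higher in wild type (95% interval 102 to 367, counting error only). The size of the list's change rests on some libraries. At 12 days PAP14 had 1.01 CPM in wild-type library 6 and 24.2 and 16.6 CPM in libraries 10 and 12, and the list had 9 lower members when wild-type library 4 or 12 was left out, 7 when geralt library 5 was, and 6 when wild-type library 4 and geralt library 5 both were. It was 6 or 7 without 1 of geralt libraries 1, 3, 7 and 9 or wild-type libraries 2 and 8. Of 21 iron homeostasis genes 4 were lower, among them the reductase FRO2 (-3.06, SE 0.53, adjusted p = 0.01) and the root iron transporter IRT1 (-6.14, SE 1.02, adjusted p = 0.0082), whose libraries overlapped at 12 days. The iron count was 2 without wild-type library 2 or geralt library 9, and 3 to 5 without any of the others.

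In the defence and stress lists at most 4 members were called, while over all tested genes 2.21% were higher and 3.32% lower. The jasmonate, glucosinolate and salicylic acid counts of lower genes are above that share, but varied with single libraries. Of 15 jasmonate genes 4 were lower, the biosynthesis genes LOX2 (-1.57), AOS (-1.34), AOC1 (-1.22) and AOC2 (-1.45). The count was 2 without any of geralt libraries 1, 3, 7 and 9 or wild-type libraries 2 and 8, and 3 or 4 without any of the others. Of 19 aliphatic and other glucosinolate genes 4 were lower, with BCAT4 at -1.54 (SE 0.21, adjusted p = 0.00413) and -2.45 at 5 days against -0.63 at 12 days. The count was 2 without any of geralt libraries 5, 7 and 9 or wild-type libraries 2, 8 and 10, and of the 4 genes CYP83A1 kept its call in 13 and CYP79F1 in 15 of 23 other settings, while BCAT4 and CYP79F2 kept theirs in all 23. Of 15 salicylic acid and defence genes 2 were lower, ICS1 (-1.22) and WRKY70 (-1.58). These calls held in 16 and 10 of 23 other settings, and the count was 0 without any of geralt libraries 1, 3, 5 and 9 or wild-type libraries 2 and 8. Of 18 oxidative and singlet oxygen response genes the superoxide dismutase CSD1 was higher (1.70) and the thylakoid ascorbate peroxidase TAPX lower (-1.02), calls that held in 13 and 14 of 23 other settings. None of 16 clock genes was called, with a median of 0.10.

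Transcription factors of the shoot meristem were among the genes that rose over both ages. STM, a KNOX factor that keeps meristem cells undifferentiated (chr1:23058582-23062063, minus strand), had 26, 19.4 and 19.3 CPM in geralt, against 5.39, 10.2 and 5.97 CPM in wild type at 5 days. At 12 days it had 17.4, 17.9 and 18.8 CPM in geralt, against 5.92, 6.58 and 7.60 CPM in wild type. All geralt libraries lay above all wild-type libraries, and STM rose by 1.5 (SE 0.18, adjusted p = 0.00183), with 1.58 at 5 days and 1.43 at 12 days. KNAT1, another KNOX factor, rose by 1.06 (SE 0.20, adjusted p = 0.0135), and KNAT2 by 1.1 (SE 0.29, adjusted p = 0.0459), a call kept in 5 of 22 other settings. These were the only 3 of 15 tested meristem and cell cycle genes that passed, while over all tested genes 2.21% were higher. In this list 9 fitted values were above 0 and 6 below (lowest -0.66), with a median of 0.22. The list's library medians overlapped between genotypes at both ages. The cytokinin response factor CRF6 had 25.5, 17.2 and 21.3 CPM in geralt, against 9.95, 10.6 and 7.37 CPM in wild type at 5 days, and 24.7, 18.2 and 19.2 CPM in geralt, against 5.43, 6.81 and 3.95 CPM in wild type at 12 days (1.57, SE 0.18, adjusted p = 0.00183). AT5G13370, of the GH3 family, rose by 1.22 at 5 days and 1.21 at 12 days and did not overlap at either age.

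Many of the largest consistent rises with an average log2 CPM of at least 1 were in genes with little signal in most wild-type libraries. The largest rises at that level included the DUF295 genes AT1G30170 (5.18), AT5G53240 (4.90) and AT5G53230 (4.82), AT2G24255 (5.14), AT4G29200 (5.02), AT1G17960, annotated as a threonyl-tRNA synthetase (3.42), the chromatin remodelling gene CLSY3 (2.98), the starch-related orphan gene QQS (2.97), the NAC factor ANAC044 (2.90) and the MATE efflux gene DTX3 (2.61). ANAC044 and DTX3 had clear wild-type signal, up to 12.9 and 14.5 CPM in a wild-type library other than library 4. The call of CLSY3 held in 14 of 23 other settings. AT1G20750, consistent but below that average level, rose by 5.59. AT5G53240 had 16.1, 14.2 and 13.3 CPM in geralt, against 0.205, 5.69 and 0.308 CPM in wild type at 5 days, and 17.8, 12.6 and 14.5 CPM in geralt, against 0.195, 0.129 and 0.0357 CPM in wild type at 12 days (SE 0.74, adjusted p = 0.00614). Its geralt libraries were much alike at both ages, and the wild-type spread came from library 4. AT1G17960 had 32, 18.7 and 16 CPM in geralt, against 1.51, 7.48 and 0.982 CPM in wild type at 5 days, and 28.9, 14.1 and 12.8 CPM in geralt, against 1.03, 0.854 and 1.31 CPM in wild type at 12 days (SE 0.47, adjusted p = 0.00445). In each of the 16 largest rises named here by rule (the 10 largest and the next 6 with a symbol), library 4 was the highest of the 6 wild-type libraries. It stood at 30.8% to 58.8% (median 42.1%) of the geralt 5-day mean, while the other wild-type 5-day libraries averaged 0% to 27.8% (median 2.83%). Without library 4 the mean log2 fold changes of these 16 genes ran from 2.78 to 9.47, with a median of 4.61. What sets this library apart was not tested.

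DUF295 genes, which code for proteins of unknown function named after a shared domain, were counted as a family after their values had been seen. Of 69 genes with this RefSeq product 28 had enough reads to be tested. Of these 28, 6 were higher (AT1G30170, AT5G53240, AT5G53230, AT5G55270, AT4G13680 and AT5G54560), all 6 consistently, while over all tested genes 2.21% were higher. The read filter can pass a gene near 0 in wild type through its geralt libraries alone, so this share is not free of selection. The gene listed as SDC_2 was lower (-4.80, SE 1.22, adjusted p = 0.0481), a call that held in 7 of 22 other settings. The calls of AT4G13680 and AT5G54560 held in 15 and 13 of 23 other settings. The family's median was 0.31, with 18 members above 0 and 10 below. At 12 days AT1G30170 had 1474 reads in geralt and 8 in wild type, 219-fold higher in geralt (95% interval 111 to 508, counting error only). AT5G53240 and AT5G53230 are neighbours on chromosome 5 and of the same family, so how reads were divided between them is uncertain.

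In the lists of mitochondrial, heat and DNA damage responses 3 to 6 members were higher, while over all tested genes 2.21% were higher. Of 15 tested genes of the mitochondrial retrograde response 4 were higher: the alternative oxidase AOX1C (2.61), the NAC factor NAC013 (1.53), the glycosyltransferase UGT74E2 (1.82) and AT2G21640 (2.26), and the first 3 were consistent. NAC013 had 15.9, 10.7 and 14.1 CPM in geralt, against 5.90, 9.04 and 3.91 CPM in wild type at 5 days, and 21.9, 8.85 and 8.85 CPM in geralt, against 3.06, 3.55 and 3.62 CPM in wild type at 12 days (SE 0.27, adjusted p = 0.0108). AOX1A, the main stress-induced alternative oxidase gene, had 0.59 and was not called (SE 0.18, adjusted p = 0.0819). Of 18 heat shock genes 6 were higher and none lower, with a median of 1.11, but only HSP17.6II was consistent (1.34), and HSP70-4 (1.42, SE 0.25, adjusted p = 0.0105) overlapped at 5 days through wild-type library 4. The heat shock count was 2 or 3 without any of geralt libraries 1 and 7 or wild-type libraries 2 and 8. Of 7 DNA damage genes 3 were higher, GMI1 (1.79, SE 0.29, adjusted p = 0.00757), the cyclin-dependent kinase inhibitor gene SMR7 (2.19) and the poly(ADP-ribose) polymerase gene PARP2 (1.37), and the count was 1 without geralt library 7 or wild-type library 2. GMI1 had 24.9, 17.8 and 24.0 CPM in geralt, against 5.03, 13.7 and 6.95 CPM in wild type at 5 days, and 35.1, 15.1 and 13.1 CPM in geralt, against 4.1, 4.71 and 4.81 CPM in wild type at 12 days, again with library 4 the nearest to geralt.

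The largest fall was in AT4G13575, an uncharacterized gene on chromosome 4 (chr4:7890249-7893761, minus strand). It had 0, 0.0465 and 0.0184 CPM in geralt, against 15.4, 14.5 and 33.3 CPM in wild type at 5 days, and 0.0180, 0.0445 and 0.159 CPM in geralt, against 28.7, 39.7 and 35.9 CPM in wild type at 12 days. The mean log2 fold change was -9.35 (SE 0.48, adjusted p = 2.17e-06), from 15 reads in geralt and 10408 in wild type. Its neighbours were examined after this value had been seen. UNE15, a late embryogenesis abundant protein gene, had 7 reads in geralt and 279 in wild type (-5.13, SE 0.76, adjusted p = 0.00603), and AT4G13577 had 9 reads in geralt and 150 in wild type (-4.44, SE 0.82, adjusted p = 0.0123). HTA4 and AT4G13572, which lie between UNE15 and AT4G13575, had no read in any library. Together these 5 consecutive genes span 18.9 kb, chr4:7879558-7898499, and the 3 that had reads in wild type were near 0 in all 6 geralt libraries. The genes that flank them, AT4G13550 (-0.30, SE 0.16) and DIR18 (-0.37, SE 0.31), were not called. PAM71-HL, the next gene after DIR18, was consistently lower by a smaller change (-0.63, SE 0.148, adjusted p = 0.03). No other run of 3 or more neighbouring tested genes was consistent and had every member changed at least 8-fold, and 2 other runs were consistent at smaller changes, LHCB1.1 to LHCB1.3 lower and a run with TT5 higher. Whether the genome of the geralt line differs from wild type at this place was not tested. PHR2 is on another chromosome.

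**Figure D4:**
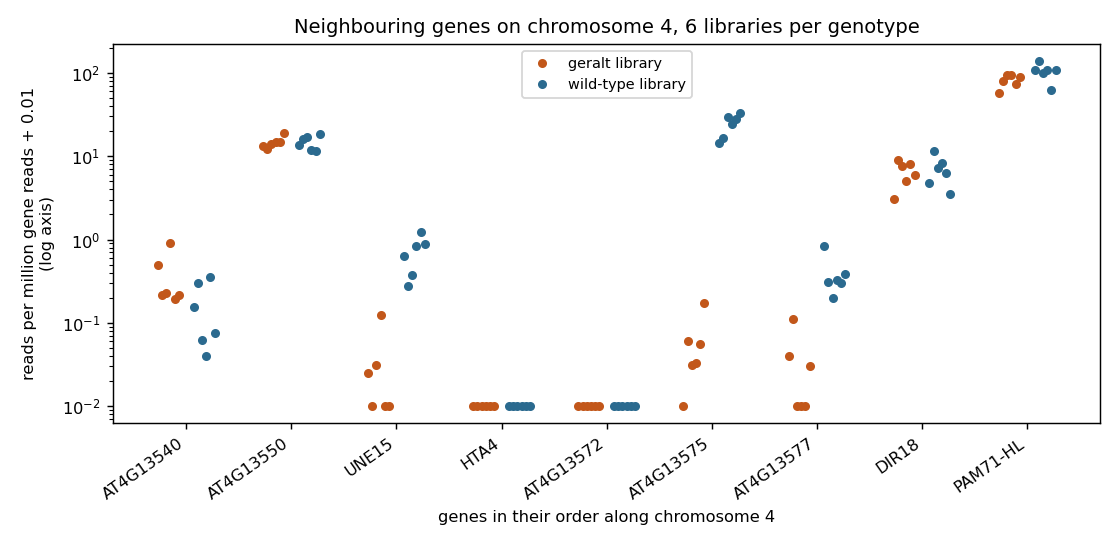
Unscaled CPM plus 0.01 (log axis) of 9 genes in their order along chromosome 4, with 6 geralt libraries left of 6 wild-type libraries for each gene. UNE15, AT4G13575 and AT4G13577 are near the bottom in geralt, while AT4G13550 and DIR18 beside them overlap between genotypes.

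Other large consistent falls were in genes of mixed function. AT3G55240, annotated as a plant protein of unknown function, changed by -6.99 (SE 0.65, adjusted p = 0.000641), with 0.0961, 0.186 and 0.0184 CPM in geralt, against 28.4, 10.4 and 39.3 CPM in wild type at 5 days, and 0.0180, 0.178 and 0.179 CPM in geralt, against 15.7, 5.67 and 2.72 CPM in wild type at 12 days. COR413IM1, a cold-regulated protein of the plastid inner membrane, changed by -4.63 (SE 0.54, adjusted p = 0.00183), the sugar transporter gene SWEET10 by -4.01 (SE 0.49, adjusted p = 0.00183), and FUM2, the cytosolic fumarase, by -3.64 (SE 0.53, adjusted p = 0.00503). By the definition of consistent, none of these genes overlapped between genotypes at either age. All of them kept their call in all 23 other settings. AT2G11405 and NUDT24 had no read in any geralt library, against 136 and 414 reads in the wild-type libraries, levels at least 32.8-fold and 99.9-fold lower against a floor of 3 reads over the group. NUDT24 varied among wild-type libraries, with 112, 59 and 14 reads at 5 days and 222, 1 and 6 at 12 days.

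Sequences of 250 bases before the annotated start were read from the RefSeq TAIR10.1 genome, whose coordinates equal those of TAIR10 in the files, for 20970 tested genes on chromosomes 1 to 5, and are shown for genes whose values are given above. Capitals mark matches, on either strand, to the motifs named for that promoter, and matches to other motifs are left in lower case. The LHCB2.3 promoter (chr3:10255656-10255905, plus strand) holds the G-box CACGTG, a light-response element, and CCAATC, a motif reported for GLK factors. The CAO promoter (chr1:16851272-16851521, minus strand) holds the G-box at 2 places, and the PORB promoter (chr4:13725296-13725545, plus strand) holds CCAATC at 2 places. The MGD2 promoter (chr5:6896213-6896462, plus strand) holds P1BS, the phosphate response element GNATATNC.
LHCB2.3: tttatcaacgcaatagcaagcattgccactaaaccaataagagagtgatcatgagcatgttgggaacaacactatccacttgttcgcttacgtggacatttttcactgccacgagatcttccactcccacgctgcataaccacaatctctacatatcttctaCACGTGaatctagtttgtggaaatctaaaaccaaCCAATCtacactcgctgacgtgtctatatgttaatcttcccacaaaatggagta
CAO: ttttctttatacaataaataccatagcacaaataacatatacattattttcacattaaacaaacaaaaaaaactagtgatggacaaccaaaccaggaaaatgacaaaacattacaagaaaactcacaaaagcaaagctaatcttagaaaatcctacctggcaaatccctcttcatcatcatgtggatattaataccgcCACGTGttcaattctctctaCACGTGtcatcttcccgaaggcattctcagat
PORB: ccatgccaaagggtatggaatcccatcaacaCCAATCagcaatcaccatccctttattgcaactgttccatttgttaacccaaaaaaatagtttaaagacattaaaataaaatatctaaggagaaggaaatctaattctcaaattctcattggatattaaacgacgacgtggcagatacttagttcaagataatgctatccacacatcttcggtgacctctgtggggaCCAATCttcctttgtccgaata
MGD2: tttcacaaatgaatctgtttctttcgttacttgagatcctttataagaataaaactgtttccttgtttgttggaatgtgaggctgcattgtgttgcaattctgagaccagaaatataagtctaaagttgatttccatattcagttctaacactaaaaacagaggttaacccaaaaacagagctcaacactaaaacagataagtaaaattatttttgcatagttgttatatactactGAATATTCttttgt

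G-box matches were found in 12.0% of the promoters of consistently lower genes and in 5.5% of those of consistently higher genes, against 7.2% of all tested promoters. CCAATC was found in 13.3% of the lower and 6.8% of the higher ones, against 10.5% of all, and in 9 of the 15 consistently lower antenna genes (60.0%). Antenna genes include near-identical copies, some of them neighbours, so their promoters may not be independent. CCAATC was less frequent in the other consistently lower lists looked at. These were the photosystem and electron transport genes (4 of 22, 18.2%), chlorophyll biosynthesis genes (2 of 11, 18.2%) and phosphate genes (0 of 6). GATAAG, the I-box of light-regulated promoters, was found in 17.5% of the lower and 10.0% of the higher ones, against 12.4% of all. P1BS was found in 6.65% of the lower and 3.88% of the higher ones, against 5.4% of all, and in 3 of the 6 consistent phosphate genes. The evening element AAAATATCT was found in 1.77% of the lower and 2.59% of the higher ones, against 2.46% of all. The G-box reads the same on both strands, and none of these 5 motifs contains another. These shares are descriptions of letters and not of binding.

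A further motif, CTTG followed by 5 bases of any kind and CANG, a looser form of a motif known from promoters of the mitochondrial retrograde response, was added after the values had been seen. It was found in 20 of 309 promoters of consistently higher genes (6.47%) and in 1.33% of those of lower ones, against 1.41% of all tested promoters. Among the higher genes it was in 13 of 65 with a log2 fold change of at least 2 (20.0%) and in 7 of the other 244 (2.87%). Of the DUF295 genes, 3 of 6 called higher held it (50%), and so did 4 of 22 tested and not called higher (18.2%). DUF295 genes with too few reads to be tested are not in these shares. AT5G53240 and AT5G53230 are neighbours of the same family, so their promoters may not be independent. The 20 genes include AT5G53240, AT5G53230, AT5G55270, AT1G17960, ANAC044, DTX3, SRO3, HAC2, CYP81D8 and the prohibitin gene PHB3. They do not include AOX1C, NAC013 or UGT74E2, the 3 consistent genes of the retrograde list. Capitals in the promoters of AT5G53240 (chr5:21601231-21601480, plus strand), AT1G17960 (chr1:6183807-6184056, minus strand), ANAC044 (chr3:228825-229074, plus strand) and DTX3 (chr2:1339469-1339718, minus strand) mark this motif, which DTX3 holds at 2 places.
AT5G53240: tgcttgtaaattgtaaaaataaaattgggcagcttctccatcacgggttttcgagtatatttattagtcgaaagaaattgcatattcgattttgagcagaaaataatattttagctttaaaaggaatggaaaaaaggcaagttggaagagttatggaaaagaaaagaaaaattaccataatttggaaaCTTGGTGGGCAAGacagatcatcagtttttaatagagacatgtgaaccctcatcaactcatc
AT1G17960: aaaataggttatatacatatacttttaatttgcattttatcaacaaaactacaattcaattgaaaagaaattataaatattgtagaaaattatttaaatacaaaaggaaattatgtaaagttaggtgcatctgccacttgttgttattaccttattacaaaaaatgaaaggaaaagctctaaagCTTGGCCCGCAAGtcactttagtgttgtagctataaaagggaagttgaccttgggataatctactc
ANAC044: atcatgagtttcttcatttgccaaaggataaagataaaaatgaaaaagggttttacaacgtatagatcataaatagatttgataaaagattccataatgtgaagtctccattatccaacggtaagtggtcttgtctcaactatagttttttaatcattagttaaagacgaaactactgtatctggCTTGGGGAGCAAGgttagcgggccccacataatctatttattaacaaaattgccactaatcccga
DTX3: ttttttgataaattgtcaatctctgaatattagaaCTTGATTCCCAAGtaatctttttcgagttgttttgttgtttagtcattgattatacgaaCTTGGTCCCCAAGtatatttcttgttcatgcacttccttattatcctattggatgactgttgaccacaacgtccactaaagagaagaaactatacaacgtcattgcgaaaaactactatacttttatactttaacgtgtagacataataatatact

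**Figure D5:**
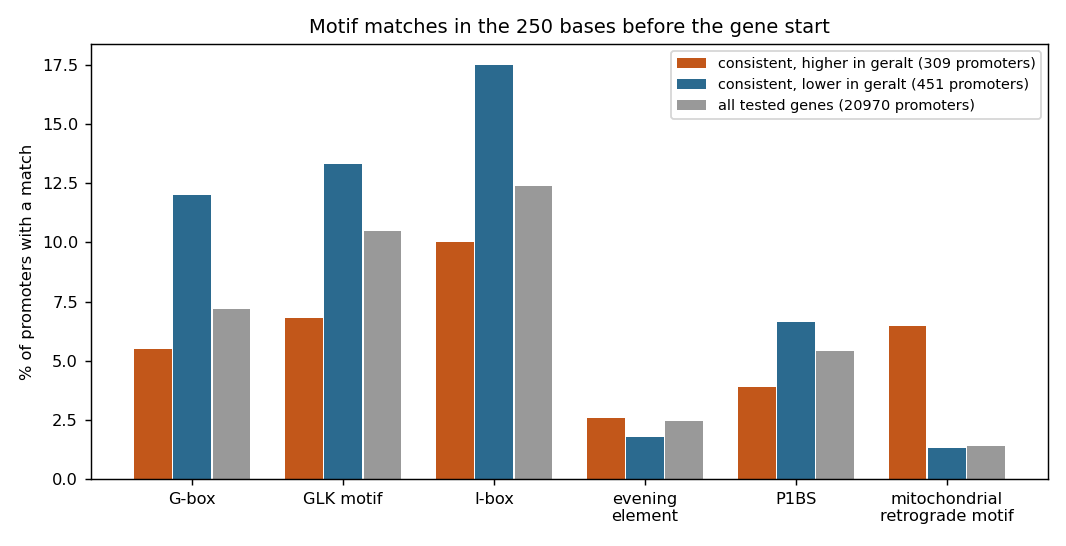
Percent of promoters, the 250 bases before the gene start, with a match to each of 6 motifs among consistently lower genes, consistently higher genes and all tested genes. The G-box is at 12.0%, 5.5% and 7.2%, and the motif of the mitochondrial retrograde response at 1.33%, 6.47% and 1.41%.

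Of the 1167 called genes 1164 had the same sign at both ages, a number that selection on the mean favours. The 3 exceptions were LHCB4.3, an antenna gene with -2.60 at 5 days and 0.42 at 12 days, AT5G18840, a transporter of the major facilitator family with -2.70 at 5 days and 0.02 at 12 days, and the phosphate transporter PHT1;2 with 0.14 at 5 days and -7.04 at 12 days. LHCB4.3 had 4.17, 3.61 and 3.73 CPM in geralt, against 26.3, 15.1 and 28.4 CPM in wild type at 5 days, and 6.03, 16.4 and 13.1 CPM in geralt, against 11.1, 10.0 and 5.33 CPM in wild type at 12 days. PHT1;2 shares reads with near-identical copies, and its 12-day value rests on 80.5 CPM in wild-type library 10. The calls of LHCB4.3 and PHT1;2 held in 13 of 23 and 9 of 22 other settings. In the authors' deposited tables, which compare the genotypes within each age, 119 genes were higher at both ages (11.5% of those higher at 5 days and 47.6% of those higher at 12 days). Lower at both ages in the authors' deposited tables were 169 genes (14.3% of those lower at 5 days and 54.7% of those lower at 12 days). Of these genes, 112 higher and 157 lower ones were also called in the mean of both ages here, from the same libraries.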

How the data were processed

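RNA-seq libraries of whole seedlings were used as the authors deposited them, as raw counts of total gene reads per gene (whole numbers, with exon, intron and unique reads beside them), with TAIR10 as the build, per the submitters' processing notes. Not given in the sources used here are the aligner, the counter and whether strand was used, so reads of overlapping or antisense genes cannot be told apart. The authors' deposited comparison tables give log2 fold changes and p-values with FDR within each age, and were used only for the number of genes past 0.05 at both ages. Other deposited columns of those tables were not used.

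Counts were fitted with edgeR 4.0.16 (R 4.3.3): TMM scaling, filterByExpr by group, 4 group means and a quasi-likelihood test with 8 residual degrees of freedom, with contrasts for the mean of both ages, each age and the interaction, and Benjamini-Hochberg adjustment over 21122 genes. SE is the log2 fold change divided by the square root of F. The fit was tested on simulated data. Alternatives, with DESeq2 1.42.0 and limma 3.58.1 among them, were 23 settings. Replicate libraries differed well beyond sampling noise (chi-square per degree of freedom 67.4 to 500.9), so none was counted as a duplicate. Depth was 41.57 M to 115.03 M gene reads, and intervals and floors cover counting error only. Library measures used exact permutation of genotype within ages over 400 assignments in Python 3.11.15.

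Members and the 28 gene lists were chosen with earlier results of these data known. Named genes are PHR2 with its 3 nearest tested neighbours on each side, the 10 largest consistent rises and falls with an average log2 CPM of at least 1, then the next 6 of each with a symbol, up to 4 called members of each list by smallest p, the 6 consistent genes of smallest p in each direction, up to 6 called genes of opposite sign at the ages, and the 6 largest in each direction called at each age and in the mean. Other list members, the DUF295 family, the chromosome 4 neighbours, genes without geralt reads, the retrograde motif and the genes that hold it were chosen after their values were seen.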

Additional observations from a re-analysis of the deposited data

How the results depend on the processing

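The 1167 calls numbered 366 to 1330 when each library was left out in turn, 122 to 574 of them higher and 244 to 839 lower, and the 764 consistent calls numbered 317 to 996, 103 to 372 higher and 214 to 650 lower. DESeq2 called 2279 genes, 989 higher and 1290 lower, and 1034 consistent ones. The other settings (RLE scaling, no filter, at least 1 CPM in 6 libraries, limma voom, an additive model, robust dispersion, unique or exon reads, organellar genes left out, and wild-type library 4 with geralt library 5 left out) gave 850 to 1168 calls. PHR2 ran from -2.91 to -2.56 when 1 library was left out. No called gene reversed in any setting, and 107 higher and 212 lower genes were called in each of the 12 fits without 1 library. RPL7AA, not called, ran from -0.0109, a reversed sign, to 0.182 when 1 library was left out. Without geralt library 5, 291 genes were higher. The cause of these differences was not tested. No paired analysis was possible because no library number is shared between groups and the labels name no pairs.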
